A study of Mus musculus with 2 samples.

Results

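Macrophage and myeloid genes were followed in the wall of the mouse aorta, as 34 genes typical of macrophages and other myeloid cells. They were chosen by name, with earlier results of these data known. A probe belonged to a gene if its gene name in the scanner files was that gene's symbol or an older name. Older names applied to 4 genes (Lyz2 as Lyzs, Lyve1 as Xlkd1, Spi1 as Sfpi1 and Pf4 as Cxcl4), and the 34 genes had 51 probes. Of the 34, 33 were measured, among 21367 genes measured in all. Spi1 had 1 probe, which was well above background only in the Cy3 channel of each array, so it was not counted as measured (64.1 and 64.0 units in the arch pool, 70.0 and 60.5 in the thoracic pool, on arrays 1 and 2).

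The study compared the aortic arch, a region prone to atherosclerosis, with the central thoracic aorta, a resistant region, in C57Bl/6 wild-type mice aged 16 weeks. Each region was 1 pool of RNA from 6 animals (3 males and 3 females) without a treatment or an introduced allele. Before dissection the vessels were perfused with the detergent triton X-100 to strip the endothelium. The arch piece held the root, the arch and the first 2 mm of the descending vessel, and the thoracic piece held the next 6 mm. Both pools were labelled with opposite dyes and read on 2 Agilent arrays, where the arch carried Cy5 on array 1 and Cy3 on array 2. This dye swap repeats the same RNA and counts as 1 replicate, so no test between regions can be made, and spread between animals was not measured. A ratio below is the arch signal over the thoracic signal on the log2 scale, as the mean of the arrays, and the number after ± is how far either array lies from that mean. An intensity is a normalised signal of 1 pool on 1 array and includes a background offset of 50, which pulls the ratios of dim probes towards 0. With only 2 arrays, precision is limited to this technical spread. Median gene-spot signals lay between 87.1 and 97.1 units in the 4 channels, over local backgrounds of 40 to 48, and 71.3% to 81.5% of gene spots were well above background.

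Macrophages live in the outer coat of the normal artery wall, where they clear debris and dead cells, and they accumulate lipid in the inner coat when atherosclerosis begins. Their growth and survival depend on the receptor encoded by Csf1r, and their gene programme depends on the transcription factor PU.1, encoded by Spi1. Antibody-coated particles are taken up through Fc receptors, whose activating forms signal through the gamma chain encoded by Fcer1g, and a related adaptor encoded by Tyrobp serves Trem2 and similar receptors.

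No member had a measured ratio of 1.5-fold between the regions on each array, where 0.257% of all measured genes were higher in the arch by that rule and 0.229% were lower. Most members had a slightly weaker signal in the arch pool. As they were chosen with earlier results of these data known, the shares below are descriptions only. The ratio was below 0 on both arrays for 23 of the 33 members, a share of 69.7% beside 26.5% of all genes, and above 0 on both for 3, beside 28.4% of all genes. It was at most −0.2 with the same sign on both arrays for 11 members, or 33.3%, beside 2.83% of all genes. Both this count and its background depended on the processing. There were 14 such members beside 6.57% of all genes with an offset of 0, 14 beside 8.04% with the ratios of the scanner software or of the series' value table, and 21 beside 12.8% with median centring. Among the 3937 genes with an intensity between the members' quartiles (210 to 565 units), 33.1% were below 0 on both arrays and 4.65% were at most −0.2. The members' median was −0.13 (−0.15 on array 1 and −0.13 on array 2), against 0.00 over all genes. At 1.3-fold on each array 0 members were called as well, beside 0.627% of all genes higher and 0.524% lower, and at 2-fold 0 members beside 0.0421% and 0.0702%. In bulk tissue, fewer macrophages, less RNA per macrophage and the differences in other cell types described below cannot be told apart.

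**Figure D1:**
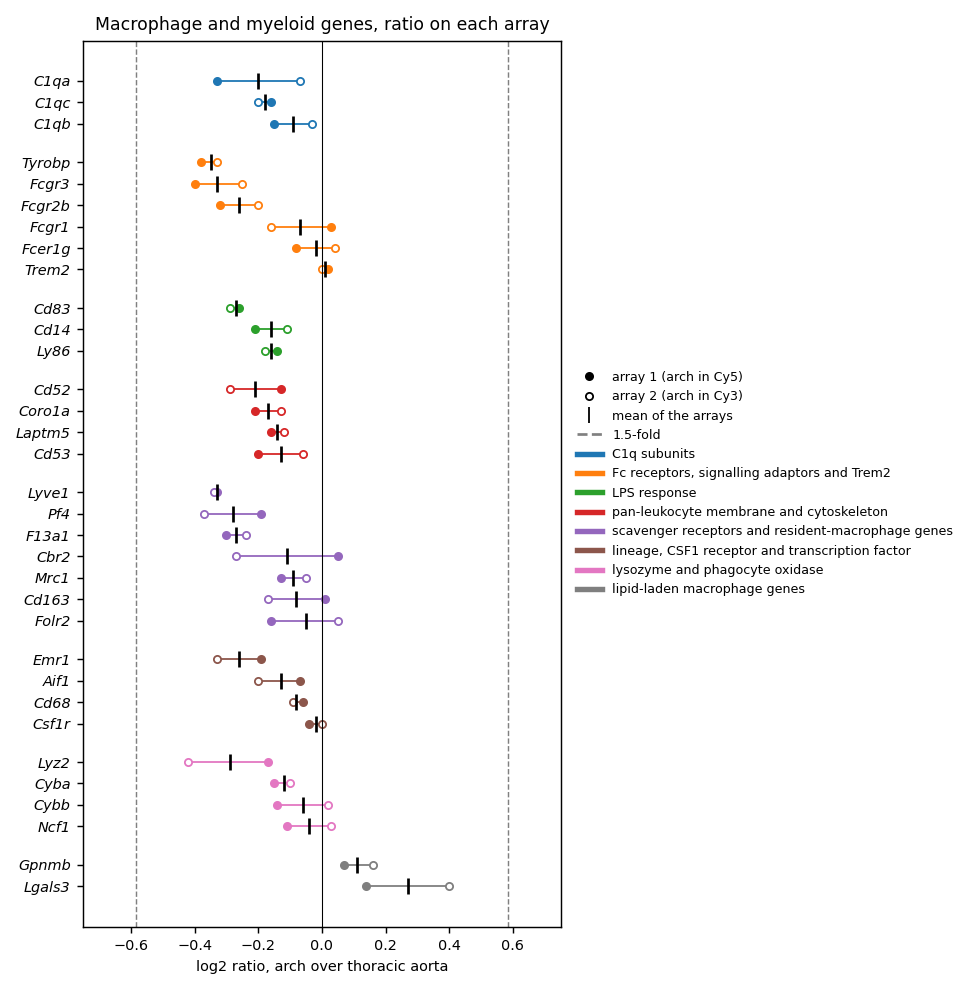
The log2 ratio of arch over thoracic aorta is plotted for the 33 measured members on array 1 (filled points) and array 2 (open points), with the mean as a bar, grouped by role. All means lie between −0.35 (Tyrobp) and 0.27 (Lgals3), inside the dashed 1.5-fold lines.

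The ratios were set against the distance between the arrays. The mean ratio was more than 2 half-differences away from 0 in 21 of the 33 members, and in 35.5% of all genes. Half-differences had a median of 0.06 over the members and reached 0.16 for Cbr2. Across the 4 channels, both arch intensities lay below both thoracic intensities for 21 members, beside 15.2% of all genes. Both lay above for 2 members, Lgals3 and Gpnmb, beside 14.9% of all genes. These intensities are the values behind the ratios, so the counts are not separate support.

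**Figure D2:**
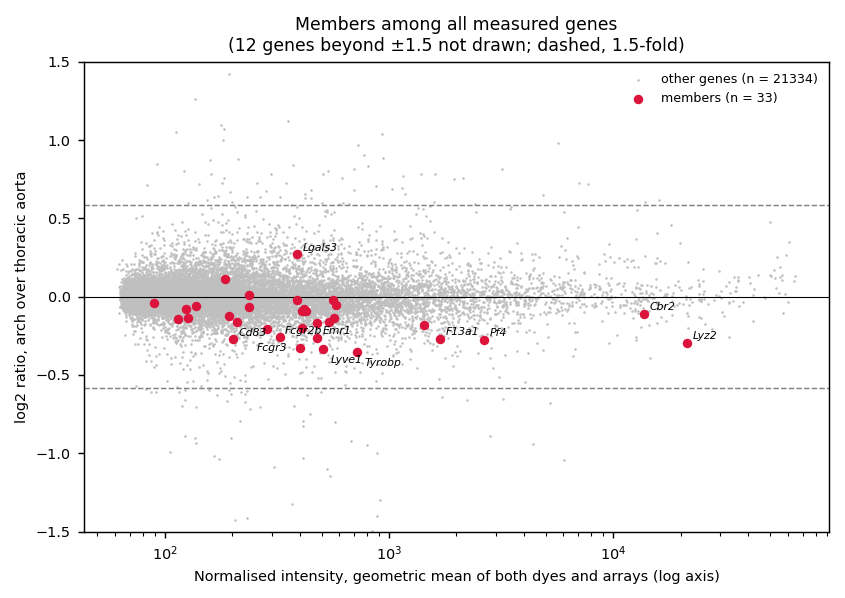
Each point is a gene, with its normalised intensity on a log axis and its log2 ratio of arch over thoracic aorta. The 33 members (red) sit mostly just below 0 at all brightness levels, within the dashed 1.5-fold lines, and 12 genes beyond ±1.5 are not drawn.

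PU.1 is the factor around which the myeloid programme is built, so the members' promoters were searched for its motif. They were read from RefSeq (build GRCm38.p6), from 250 bases before to 50 after each start. Windows were found for 25 of the 34 members, 29 windows in all. Tyrobp, Lyve1, Cd83 and Emr1 were among the members without one. The letters GAGGAA, the core of the purine-rich box that PU.1 binds, were searched on both strands. They occurred in 16 of the 29 windows (55.2%), which belonged to 14 members, and in 28.3% of all 32851 promoter windows of the same length. Within 50 bases of the start they occurred in 13 member windows (44.8%), belonging to 11 members, and in 11.3% of all windows, a narrower stretch that was chosen after the matches were seen. A match is a run of letters and does not show that PU.1 binds there. Trem2, with a ratio of 0.01, held a match too, and whether PU.1 bears on the ratios was not tested. The windows of the 4 members with the lowest ratios among those holding a match are given 5′ to 3′ to show where the match lies. Capitals mark the match, which reads TTCCTC where it lies on the opposite strand.
Fcgr3 (chr1:171059345-171059644, minus strand): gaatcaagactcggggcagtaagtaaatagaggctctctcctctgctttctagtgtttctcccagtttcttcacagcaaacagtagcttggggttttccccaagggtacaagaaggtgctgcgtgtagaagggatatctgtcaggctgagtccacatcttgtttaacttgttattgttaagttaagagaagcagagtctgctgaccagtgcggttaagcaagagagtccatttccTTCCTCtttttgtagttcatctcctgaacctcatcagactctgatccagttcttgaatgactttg
Pf4 (chr5:90772185-90772484, plus strand): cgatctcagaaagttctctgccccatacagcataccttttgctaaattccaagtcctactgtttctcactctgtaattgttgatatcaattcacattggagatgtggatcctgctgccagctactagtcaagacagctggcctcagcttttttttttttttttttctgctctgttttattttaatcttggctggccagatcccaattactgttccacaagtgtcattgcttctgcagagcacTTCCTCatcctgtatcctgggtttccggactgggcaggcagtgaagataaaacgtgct
F13a1 (chr13:37049164-37049463, minus strand): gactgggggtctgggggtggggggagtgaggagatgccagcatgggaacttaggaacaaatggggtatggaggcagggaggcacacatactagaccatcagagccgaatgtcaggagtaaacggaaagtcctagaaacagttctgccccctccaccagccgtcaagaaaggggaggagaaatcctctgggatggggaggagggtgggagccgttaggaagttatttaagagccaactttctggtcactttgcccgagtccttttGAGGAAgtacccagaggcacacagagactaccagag
C1qc (chr4:136892865-136893164, minus strand): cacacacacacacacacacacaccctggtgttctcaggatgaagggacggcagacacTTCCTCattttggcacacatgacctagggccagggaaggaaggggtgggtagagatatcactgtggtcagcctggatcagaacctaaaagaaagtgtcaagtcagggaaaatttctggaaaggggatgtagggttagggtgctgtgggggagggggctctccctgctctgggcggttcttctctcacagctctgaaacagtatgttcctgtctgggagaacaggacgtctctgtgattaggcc

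In these windows the match began 15 bases before the start in Fcgr3, 8 bases before it in Pf4 and 193 bases before it in C1qc, all on the opposite strand. In F13a1 it began 14 bases after the start, on the gene's own strand. Fcgr3 and F13a1 each have 2 windows, 1 of which is printed, and the position is counted from the start of the printed one. The windows of Fcgr3 overlap and hold the same match. The windows of Lyz2 and Fcgr2b had no match, which says only that these letters were not there.

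Ratios differed among the receptors for antibody, the signalling adaptors and Trem2. Tyrobp, which encodes the adaptor DAP12 that carries activating signals into the cell, had intensities of 640.0 and 636.4 in the arch pool (array 1, array 2) and 833.6 and 797.6 in the thoracic pool. Both arch values were below both thoracic values, and the ratio was −0.35 ± 0.03, or 0.783 times the thoracic signal. Fcgr3, an activating receptor for IgG, had 361.2 and 354.8 in the arch pool, against 475.8 and 423.3 in the thoracic pool, a ratio of −0.33 ± 0.07. The pools did not overlap, and a second, dimmer Fcgr3 probe gave −0.17.

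Fcgr2b, the inhibitory receptor for IgG, had 298.9 and 297.0 in the arch pool and 373.1 and 340.6 in the thoracic pool, a ratio of −0.26 ± 0.06. Its other probes gave −0.23 and −0.14, so all 3 were on the same side. The mouse Fcgr2b and Fcgr3 sequences are closely related, and whether the probes tell them apart was not tested. The remaining members of this group were near 0 or had arrays of opposite sign. Fcgr1, the high-affinity IgG receptor, measured −0.07 ± 0.10, and Fcer1g, the common gamma chain through which Fcgr3 and Fcgr1 signal, measured −0.02 ± 0.06, with −0.10 at a dimmer probe. Trem2, a lipid-sensing receptor that signals through DAP12, gave 236.8 and 238.9 in the arch pool and 234.0 and 238.2 in the thoracic pool, a ratio of 0.01 ± 0.01. The arch and thoracic values overlapped for Trem2 and did not overlap for Tyrobp, its signalling partner.

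Of the genes associated with macrophages that reside in tissue, 3 of 7 were at most −0.2, beside 2.83% of all genes. Lyve1, a receptor for hyaluronan on perivascular macrophages and on lymphatic endothelium, had 467.3 and 442.5 in the arch pool and 587.0 and 559.7 in the thoracic pool. That is a ratio of −0.33 ± 0.00, with the arrays closer together than for any other member at most −0.2. Both arch values lay below both thoracic values. A dimmer Lyve1 probe, not well above background in the arch on array 1, gave −0.09. F13a1, the A subunit of coagulation factor XIII, had 1511 and 1577 in the arch pool, against 1859 and 1861 in the thoracic pool, a ratio of −0.27 ± 0.03. Pf4, platelet factor 4, a chemokine of platelets that resident macrophages also express, had 2367 and 2463 in the arch pool and 2694 and 3175 in the thoracic pool, a ratio of −0.28 ± 0.09. For F13a1 and Pf4 too, both arch values lay below both thoracic values, beside 15.2% of all genes.

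Lyve1 and Pf4 are shared with other cell types, whose markers were read on the same arrays. Of 5 measured lymphatic endothelial markers, 0 were at most −0.2, beside 2.83% of all genes, so a count of 0 in so few says little. Their median was −0.03, ranging from −0.09 (Mmrn1) to 0.12 (Flt4). Of 6 measured platelet markers, 4 were above 0 on both arrays, beside 28.4% of all genes. Their median was 0.09, ranging from −0.05 to 0.38, and the 2 highest, Ppbp and Gp9, measured 0.38 ± 0.03 and 0.28 ± 0.02. The part of these cell types in the ratios of Lyve1 and Pf4 was not tested. The other 4 resident-macrophage genes were closer to 0. The mannose receptor gene Mrc1 measured −0.09 ± 0.04 and the haemoglobin scavenger receptor gene Cd163 −0.08 ± 0.09. The folate receptor gene Folr2 measured −0.05 ± 0.11, and Cbr2, a carbonyl reductase, −0.11 ± 0.16. The arrays disagreed in sign for Cd163, Folr2 and Cbr2, and Cbr2 was at 13682 and 12768 units in the arch pool and 13174 and 15405 in the thoracic pool.

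**Figure D3:**
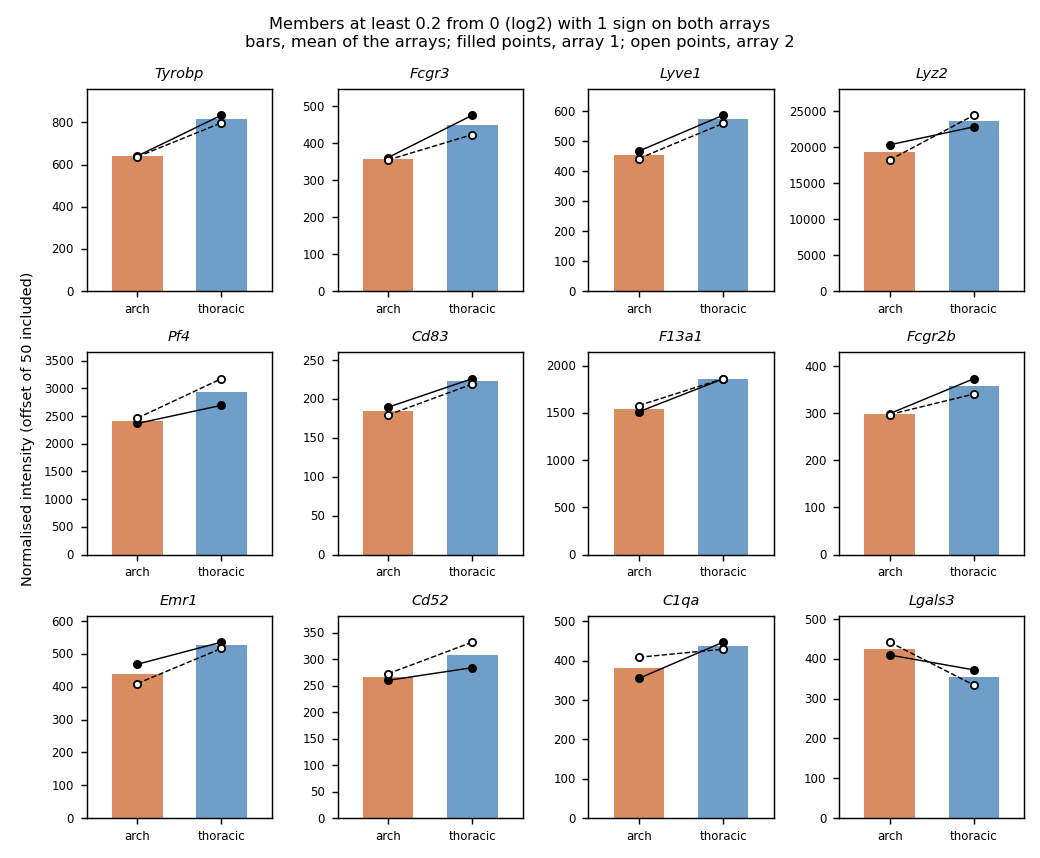
Normalised intensity in the arch and thoracic pools for the 12 members whose ratio was at least 0.2 from 0 with the same sign on both arrays, with bars for the mean of the arrays and points for array 1 (filled) and array 2 (open). Both arch points lie below both thoracic points in 11 panels and above them in the Lgals3 panel. Panels were chosen by these same values, so that separation was largely set by the choice.

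The lineage markers that define macrophages were well above background in both pools. All 4 measured ones were below 0 on both arrays, beside 26.5% of all genes. Csf1r was only just below 0, and its ratio on array 2 rounds to 0.00. Emr1, an adhesion-family receptor and the classical surface marker of mouse macrophages, had 468.2 and 409.6 in the arch pool and 535.6 and 516.5 in the thoracic pool, a ratio of −0.26 ± 0.07, and its other probe was not well above background in any channel. Aif1, which encodes the actin-binding protein Iba1, had 566.7 and 516.9 in the arch pool and 595.2 and 592.6 in the thoracic pool, a ratio of −0.13 ± 0.06, with −0.09 at another probe. Cd68, a lysosomal glycoprotein, had 121.1 and 120.9 in the arch pool and 126.4 and 128.8 in the thoracic pool, a ratio of −0.08 ± 0.01. For Aif1 and Cd68 both arch values were below both thoracic values, beside 15.2% of all genes. Csf1r had 374.9 and 397.7 in the arch pool and 384.3 and 398.7 in the thoracic pool, a ratio of −0.02 ± 0.02. Its 2 dimmer probes disagreed in sign, at 0.09 ± 0.03 and −0.08 ± 0.01. Of the 10 measured genes listed as ligands and partners of the receptor, 0 were at least 0.2 from 0 either way. Over all genes 2.83% were at most −0.2 and 3.95% at least 0.2, so a count of 0 in so few genes says little. Csf1 and Il34, which encode the ligands of the receptor, measured −0.04 ± 0.07 and 0.02 ± 0.03.

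The C1q subunits, which form the recognition part of the first complement component and are made largely by macrophages, had ratios below 0 on both arrays. Their genes lie side by side on chromosome 4 in the RefSeq table, with 0 other coding genes between them. C1qa had 355.1 and 408.9 in the arch pool and 447.3 and 429.4 in the thoracic pool, a ratio of −0.20 ± 0.13. C1qc had 1339 and 1367 in the arch pool and 1497 and 1567 in the thoracic pool, a ratio of −0.18 ± 0.02. C1qb had 376.6 and 414.3 in the arch pool and 417.0 and 423.9 in the thoracic pool, a ratio of −0.09 ± 0.06. In all 3 genes both arch values were below both thoracic values. Over all genes this held for 15.2%, and 26.5% were below 0 on both arrays.

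Lyz2, the lysozyme of macrophages, had 20360 and 18256 in the arch pool and 22858 and 24475 in the thoracic pool. The pools did not overlap, the ratio was −0.29 ± 0.13, and a dimmer probe gave −0.35 ± 0.03. The near-identical Lyz1 may share these probes, which was not tested. The subunits of the phagocyte oxidase, which makes superoxide, were nearer to 0. Cyba, the small membrane subunit that is also found in vascular cells, measured −0.12 ± 0.03, while Cybb, the large membrane subunit, measured −0.06 ± 0.08 and the cytosolic subunit gene Ncf1 −0.04 ± 0.07. The arrays differed in sign for Cybb and Ncf1, and the 2 Cybb probes differed in sign as well.

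Genes of the response to bacterial lipopolysaccharide were all below 0 on both arrays, beside 26.5% of all genes. Cd83, a membrane protein of activated dendritic cells and other leukocytes, had 189.3 and 179.4 in the arch pool and 226.0 and 219.0 in the thoracic pool, a ratio of −0.27 ± 0.02. Cd14, a co-receptor for lipopolysaccharide, had 197.5 and 199.1 in the arch pool and 229.2 and 214.9 in the thoracic pool, a ratio of −0.16 ± 0.05. Ly86, which encodes the secreted protein MD-1, had 523.9 and 492.9 in the arch pool and 577.8 and 559.7 in the thoracic pool, a ratio of −0.16 ± 0.02. For these 3 genes both arch values were below both thoracic values, beside 15.2% of all genes. The 4 genes found across leukocytes were likewise all below 0 on both arrays, beside the same 26.5%. Cd52, a small surface glycoprotein, had 260.4 and 272.9 in the arch pool and 284.3 and 332.6 in the thoracic pool, a ratio of −0.21 ± 0.08. Coro1a, an actin regulator, measured −0.17 ± 0.04, with −0.14 at a dimmer probe. The lysosomal protein gene Laptm5 measured −0.14 ± 0.02 and the tetraspanin gene Cd53 −0.13 ± 0.07.

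Lgals3 and Gpnmb stood on the other side. Lgals3 encodes galectin-3, a lectin abundant in lipid-laden macrophages and also made by epithelial and fat-tissue cells. It had 409.7 and 442.0 in the arch pool, against 372.3 and 334.1 in the thoracic pool, a ratio of 0.27 ± 0.13, or 1.21 times the thoracic signal. Gpnmb, a transmembrane glycoprotein of macrophages and of several other cells, had 186.7 and 200.3 in the arch pool and 178.3 and 179.0 in the thoracic pool, a ratio of 0.11 ± 0.05. Its other probe was not well above background in any channel. Lgals3 was the 1 member at least 0.2 above 0 with the same sign on both arrays, beside 3.95% of all genes, but it measured 0.12 with median centring and 0.14 on array 1.

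Markers of other cell types differed between the same pools. All 7 measured adipocyte markers were above 0 on both arrays, beside 28.4% of all genes, with a median of 0.45. At 1.5-fold 3 of the 7 were called higher, beside 0.257% of all genes. Cidea, Plin1 and Adipoq measured 0.81 ± 0.03, 0.68 ± 0.00 and 0.66 ± 0.06. All 6 measured mesothelial markers were above 0 on both arrays, beside the same 28.4%, with a median of 0.36 and Upk3b at 0.65 ± 0.12. Smooth muscle markers had a median of −0.05 over 8 genes, ranging from −0.22 to 0.06. Des and Myh11 were lowest, at −0.22 each, and the arrays differed in sign for 5 of the 8. Of 10 endothelial markers 9 were well above background in at least 1 region, with a median of 0.06 and a range from −0.16 to 0.26. The same rule kept 30521 of 41150 probes in all. No vessel without perfusion was measured, so the effect of the perfusion was not tested. All listed markers of adipocytes, mesothelium and smooth muscle were well above background in at least 1 region. That does not show that each of these cell types was present in both pools. The part of these differences in the members' ratios was not tested.

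A wider list of 42 macrophage and monocyte genes, all measured, was read beside the members. It too was chosen with earlier results of these data known. In it 0 genes were called, 22 (52.4%) were below 0 on both arrays, 8 were above 0 on both, and 7 (16.7%) were at most −0.2. Over all genes 26.5% were below 0 on both arrays, 28.4% were above 0 on both and 2.83% were at most −0.2. The median of the list was −0.06. Ncf4, another cytosolic subunit of the oxidase, measured −0.26 ± 0.04 and Ccr2, the chemokine receptor of inflammatory monocytes, −0.25 ± 0.03. The highest was Gas6, a ligand that bridges dying cells and the receptors of phagocytes, at 0.38 ± 0.04. It is also made by smooth muscle and other cells of the vessel wall.

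The size of the ratios depended on the processing. With an offset of 0 the members' median was −0.18, 23 members were below 0 on both arrays (26.8% of all genes), and 0 were called at 1.5-fold (0.543% higher and 0.482% lower over all genes). Ratios of the scanner software, or of the series' value table, gave a median of −0.17, 23 members below 0 on both arrays (27.0% of all genes) and 0 called (0.711% higher and 0.59% lower). Without loess, on median-centred arrays, the median was −0.27, 29 members were below 0 on both arrays (47.2% of all genes) and 0 were called (0.131% higher and 0.351% lower). Genes with an intensity between the members' quartiles then had a median of −0.14 themselves, against −0.01 with loess. Under all 10 settings, main values included, 23 members were below 0 and Lgals3 and Gpnmb were above 0, while 8 members changed side.

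**Figure D4:**
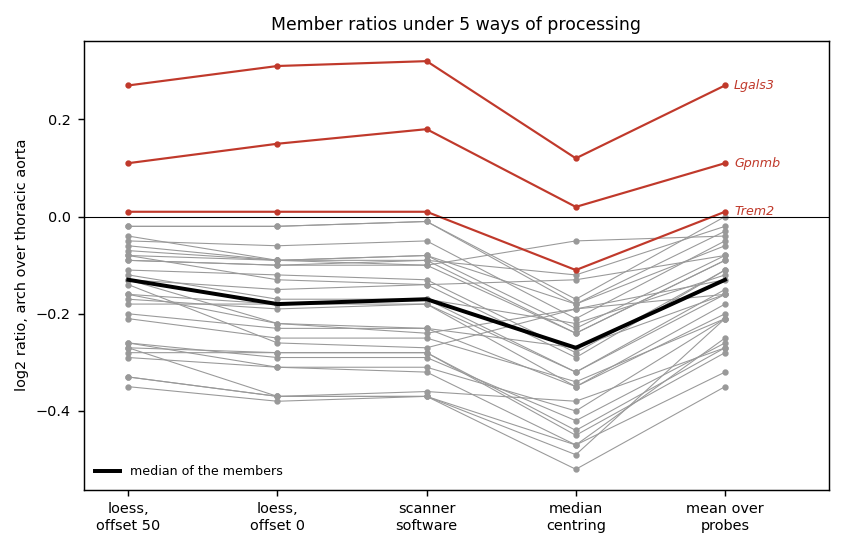
The log2 ratio of arch over thoracic aorta of each member (grey lines) and their median (black) under 5 ways of processing, with Lgals3, Gpnmb and Trem2 in red. The median lies between −0.27 and −0.13, and Trem2 is below 0 with median centring alone among these 5, at −0.11.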

How the data were processed

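RNA of the 2 aortic regions was measured on 2 two-colour arrays, and the submitters' processing notes name Feature Extraction 9.1.1.1 as the authors' quantification software. The deposited intensity columns hold, per the file headers, each spot's mean signal and local background in each dye, and the deposited log10 ratio compares the software's processed Cy5 and Cy3 signals. The authors' value table matches that log10 ratio, with the arch on top, in 99.9% of features (tolerance 1e-05 on the log2 scale), and its scale and direction were found from this match.

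Background was corrected by normexp (offset 50) and ratios were normalised by loess within arrays with control spots at weight 0 (limma 3.58.1, R 4.3.3). Control spots and outlier spots (20 and 4 of 41534 gene spots) were left out and array 2 was turned. A probe was kept if the same region passed the scanner's background test on array 1 and on array 2, for either region, which left 30521 of 41150, and a gene took its brightest kept probe. Channel intensities are after Aquantile scaling between arrays. Gene names came from RefSeq by accession for 22852 probes and by name for 10224, and 8074 kept the file's name.

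No test is possible with 1 replicate. A call needs a 1.5-fold ratio on both arrays with 1 sign. Alternatives were an offset of 0, the scanner's ratios, the value table, median centring, either array alone, the mean over probes, other filters and other fold limits. The call rule was tested on dye-swap arrays simulated from the signals of array 1 with a chosen noise, where it gave no call in the wrong direction. It missed most genes made to differ by 1.5-fold. That size is the call limit itself, so many misses were set by the design, and the ratios also came out smaller than simulated. A count of 0 calls therefore does not show that true differences were below that size. The members and all lists were chosen with earlier results of these data known. Every member is described, those at least 0.2 from 0 and some others with all channel values, and at most 3 genes of each other list by the size of their ratio, apart from Csf1, Il34 and Cd36, which were chosen after their values were seen.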

Additional observations from a re-analysis of the deposited data

How the results depend on the processing

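Under 11 alternatives 0 members were called in either direction, including a 1.3-fold and a 2-fold rule. The members' median of −0.13 was −0.18 with an offset of 0, −0.17 from the scanner's own ratios and the value table, −0.27 with median centring, and −0.15 to −0.13 on either array alone. It was −0.13 as the mean over probes, without the filter on dim probes and with a filter on both regions. The count of 23 members below 0 on both arrays was 23 to 29 under the settings that use both arrays, and 26 to 27 on either array alone. The count of 11 members at most −0.2, whose alternatives were added after seeing the data, was 21 with median centring, 14 with an offset of 0 or the scanner's ratios, and 10 on either array alone. The 8 members that changed side were Cbr2, Cd163, Cybb, Fcer1g, Fcgr1, Folr2 and Ncf1, which were above 0 on 1 array, and Trem2, which was −0.11 with median centring. The offset of 50 shrinks ratios of dim probes, so members near background, such as Ncf1 and Cd68, could differ by more than measured. No paired analysis was possible because both arrays hold the same 2 pools.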

Other observations

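Markers of other leukocytes were read in the same pools. Over all genes 26.5% were below 0 on both arrays and 28.4% were above 0 on both. Of 13 measured genes of T and NK cells 2 were below 0 on both arrays and 3 above, with a median of −0.02. Of the 13, 0 were at least 0.2 from 0, which says little in so few genes. Over all genes 2.83% were at most −0.2 and 3.95% at least 0.2. Of 8 mast cell genes 2 were below and 2 above, near the shares over all genes, with a median of 0.03. B cell genes had a median of 0.01 over 8, with Ms4a1, which encodes CD20, at 0.33 ± 0.02 and the adaptor gene Blnk at −0.23 ± 0.07, and dendritic cell genes a median of 0.01 over 4.

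Of 5 measured neutrophil genes 3 were above 0 on both arrays, beside 28.4% of all genes, and 0 were below, beside 26.5%. Their median was 0.08. S100a9 and S100a8, which encode the subunits of calprotectin, measured 0.67 ± 0.12 and 0.33 ± 0.15, while Mpo, the granule peroxidase, measured 0.08 ± 0.01. Of 7 fibroblast genes 4 were above 0 on both arrays, beside 28.4% of all genes, and the median of the 7 was 0.04. Lum and Pdgfra measured 0.55 ± 0.06 and 0.55 ± 0.15, and the next by size, Pi16, measured 0.06 ± 0.01. Red cell genes had a median of −0.10 over 3, with Alas2, the first enzyme of haem synthesis, at −0.30 ± 0.15. Cd36, a scavenger receptor for oxidised lipoproteins that fat cells also express, measured 0.23 ± 0.03.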
